A study of Mus musculus with 16 samples.

Results

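The voltage-gated sodium channel subunits examined here are the 7 genes Scn1a, Scn2a, Scn3a and Scn8a, which encode pore-forming alpha subunits, and Scn2b, Scn3b and Scn4b, which encode auxiliary beta subunits. They were chosen by name, and every array probe whose RefSeq accession maps to one of them was used, whatever its values. This gave 13 probes for 6 of the 7 genes, among 55598 probes and 20124 named genes in the series. No probe mapped to Scn3b through the table used, so it has no value here. Of the 13 probes, 8 were tested: 1 of 2 for Scn1a, 3 of 3 for Scn2a, 2 of 3 for Scn3a, 1 of 3 for Scn8a and 1 of 1 for Scn2b. The single Scn4b probe and 2 Scn8a probes never rose clearly out of the background in the 16 arrays.

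The cells were mitral cells, the projection neurons of the olfactory bulb, from ICR mice aged postnatal day 3 (P3) or 6 (P6). All groups, controls included, had received a plasmid for the fluorescent protein EYFP by electroporation in utero at E12. In the Kir2.1 groups a second plasmid had been given with it, which codes for Kir2.1, a potassium channel whose expression makes neurons harder to excite. Both plasmids carried the broadly active CAG promoter. Fluorescent cells were picked by hand, and cells with EYFP and Pcdh21 (now Cdhr1, a mitral cell marker) by PCR were kept. Each array was given a pool of 10 such cells, as amplified cDNA. There were 4 pools in each of the 4 groups (P3 control, P3 Kir2.1, P6 control, P6 Kir2.1). The labels call the pools biological replicates but do not say from how many animals they came, so the spread behind each p-value is that between pools, and it may in part be technical. The comparisons ask what silencing with Kir2.1 and what age do to sodium channel transcripts in these cells.

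As background, voltage-gated sodium channels open on depolarisation and carry the inward current of the action potential. The alpha subunit forms the pore and senses voltage. Beta subunits are single-pass membrane proteins that change gating and surface delivery and bind adhesion molecules. In central neurons the channels are anchored at the axon initial segment, where spikes start, through ankyrin-G (Ank3) and spectrin. Scn3a is best known from the embryonic and newborn brain, Scn2a from young axons, and Scn8a and Scn1a from maturing neurons.

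Between 34.3% and 41.1% of the probes of an array were well above background. Levels are given on the log2 scale with 0 set at the 75th percentile of the probes that were bright on all arrays, taken anew for each array. The lowest signal still well above background lay between -8.27 and -6.90, depending on the array. Changes are differences of group means on the same scale with their SE from limma, and the call threshold is an adjusted p of 0.05. All P3 pools lay on slide 1 and all P6 pools on slide 2, and age therefore cannot be told apart from slide. On each slide the control pools lay in row 1 and the Kir2.1 pools in row 2, so treatment and row cannot be told apart either.

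The tissue label was checked by markers. Of 9 mitral and tufted cell markers, Tbx21, Eomes, Tbr1, Slc17a7 and Slc17a6 were well above background in all 4 pools of every group. So was Cdhr1, but the cells had been kept for it by PCR, so it cannot check the label. Lhx1 was well above background in 0 P3 control, 3 P3 Kir2.1, 1 P6 control and 4 P6 Kir2.1 pools. Reln was so in 1 of the 4 P6 control pools and in all 4 pools of each other group, and Lhx5 in none. Interneuron markers were present too: of 17, between 7 and 15 were well above background in a pool. They are given beside the P6 result below.

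Promoter windows of 250 bases before to 50 after the start were at hand for 5 of the 7 genes (7 windows, RefSeq, GRCm38.p6). Those of Scn2a and the first of Scn8a are shown because these are the members whose differences between Kir2.1 and control pools at P6 lay on opposite sides of 0. Capitals mark the CG dinucleotides.
Scn2a, chr2:65620519-65620818, + strand: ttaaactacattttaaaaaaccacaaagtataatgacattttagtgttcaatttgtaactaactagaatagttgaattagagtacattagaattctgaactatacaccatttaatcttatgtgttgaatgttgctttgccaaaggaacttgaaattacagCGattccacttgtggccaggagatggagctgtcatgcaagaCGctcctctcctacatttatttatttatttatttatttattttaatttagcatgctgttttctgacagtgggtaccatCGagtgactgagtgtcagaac
Scn2a, chr2:65668436-65668735, + strand: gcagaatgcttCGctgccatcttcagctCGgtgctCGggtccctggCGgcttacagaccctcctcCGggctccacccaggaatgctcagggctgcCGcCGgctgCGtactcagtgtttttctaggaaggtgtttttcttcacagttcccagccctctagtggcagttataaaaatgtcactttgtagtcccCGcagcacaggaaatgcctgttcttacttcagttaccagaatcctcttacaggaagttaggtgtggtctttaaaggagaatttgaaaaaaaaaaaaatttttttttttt
Scn8a, chr15:100870395-100870694, + strand: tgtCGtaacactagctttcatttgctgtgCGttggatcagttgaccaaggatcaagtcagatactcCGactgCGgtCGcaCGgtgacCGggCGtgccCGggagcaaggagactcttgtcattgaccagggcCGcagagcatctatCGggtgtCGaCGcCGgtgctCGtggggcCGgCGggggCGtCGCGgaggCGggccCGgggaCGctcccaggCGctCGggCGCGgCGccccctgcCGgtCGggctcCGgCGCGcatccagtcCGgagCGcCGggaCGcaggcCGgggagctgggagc
The Scn2a windows hold 3 and 9 CG, and the Scn8a window 38, against a median of 7 over 32851 windows. The other windows hold 12 (the second of Scn8a), 5 (Scn1a), 2 (Scn2b) and 26 CG (Scn4b). On both strands, the cAMP response element TGACGTCA (in 1.79% of all windows), its short form TGACG, which the full element contains (20.8%), and the left part of the RE1 element, TTCAGCACC (0.371%), matched none of the 7 member windows. The TATA box letters TATAAA (13.6% of all windows) matched 1 of the 7, the second Scn2a window. These matches are a description of the letters in these windows only.

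In none of the comparisons did a sodium channel probe pass the threshold. With Kir2.1 at P6, 0 of the 8 probes were called by limma, where 1.61% of all tested probes were, and 3 had an unadjusted p under 0.05, where 17.1% of all did. That count was 1 without P6 control pool 3 or pool 4 and 0 without P6 Kir2.1 pool 1. It was 5 after normexp, and 1 when scaled to all gene probes, in the deposited value table and in a fit of the P6 groups alone. The 8 probes had a median change of -0.78, against -0.11 over all tested probes, and 7 of the 8 changes lay below 0. Among the 5 genes, taken by their brightest tested probe, 4 lay below 0, as did 53.7% of named genes. In pools of 10 cells, fewer cells with a transcript and less of it per cell cannot be told apart.

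**Figure D1:**
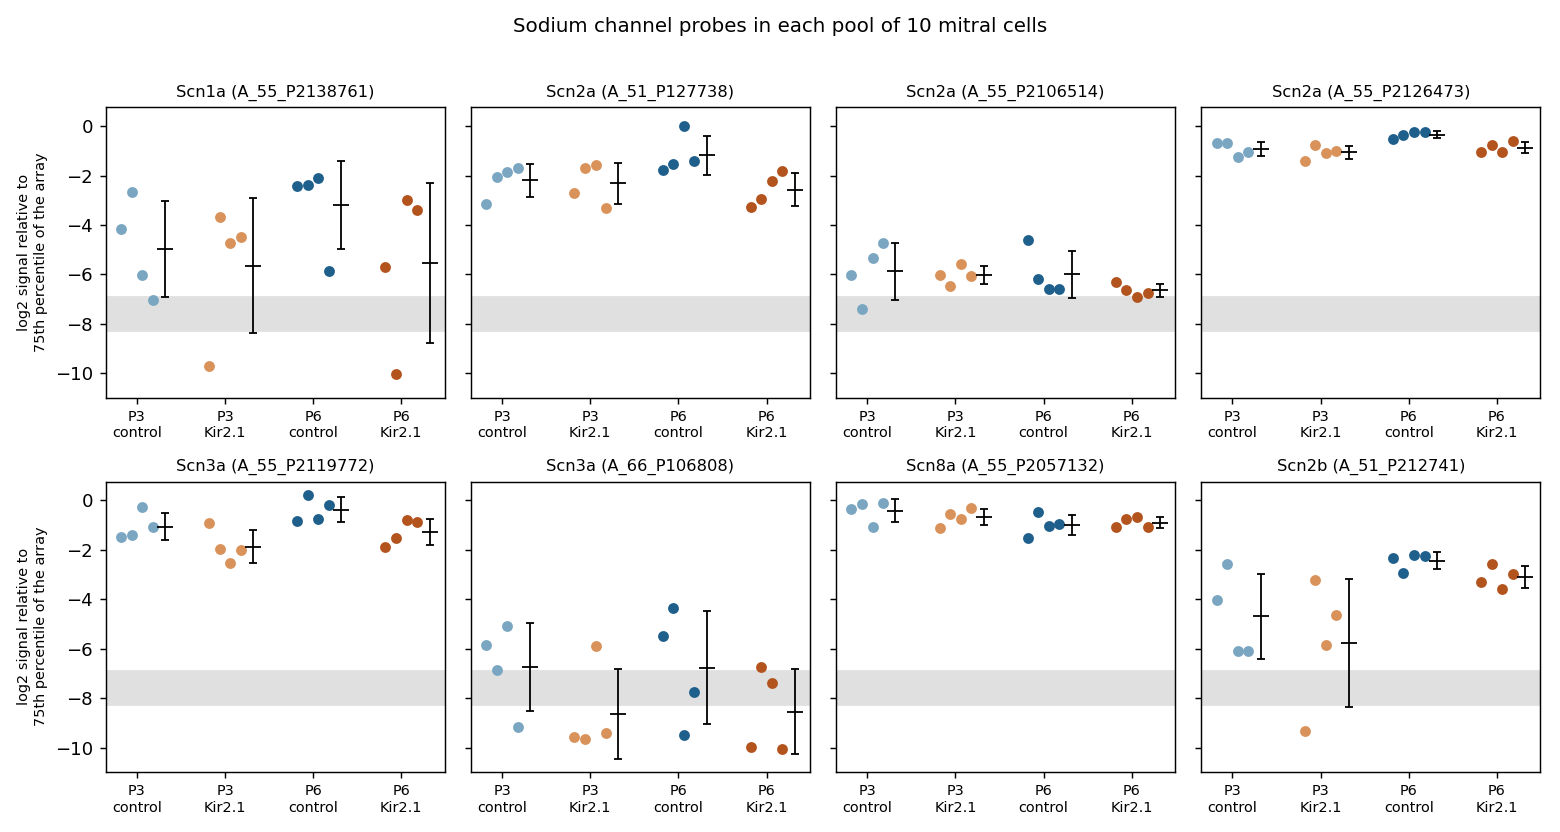
Log2 signal (relative to the array's 75th percentile) of the 8 tested sodium channel probes in each of the 16 pools, with group mean and SD in black; the grey band spans the lowest signal well above background on an array (-8.27 to -6.90). The Scn8a probe and 2 of the 3 Scn2a probes lie far above the band in all pools, and pools of Scn1a, Scn2b and the second Scn3a probe lie in or below it.

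Scn2a encodes the alpha subunit typical of young axon initial segments and unmyelinated axons. Its probe A_51_P127738 read -1.77, -1.54, -0.0089 and -1.39 in the P6 control pools and -3.27, -2.95, -2.23 and -1.80 in the P6 Kir2.1 pools. Every P6 Kir2.1 pool lay below every control pool, although the nearest pools, at -1.80 and -1.77, almost met. The means were -1.18 ± 0.79 and -2.56 ± 0.67 (SD, n = 4), a change of -1.39 (SE 0.52, 95% interval -2.50 to -0.27, adjusted p = 0.189). Such separation downward was found in 5.41% of all tested probes at P6. After outlier spots were left out, 8 to 10 spots of this probe remained on each array. The SD between these spots had a median of 0.0722, far below the spread between pools.

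The Scn2a probe A_55_P2126473 also separated the groups at P6. It read -0.53, -0.35, -0.25 and -0.22 in control pools and -1.03, -0.78, -1.06 and -0.61 in Kir2.1 pools. The means were -0.34 ± 0.14 and -0.87 ± 0.21 (SD, n = 4), and the change was -0.53 (SE 0.22, adjusted p = 0.242). The third probe, A_55_P2106514, overlapped between the groups, with means of -6.00 ± 0.94 and -6.65 ± 0.25 and a change of -0.65 (adjusted p = 0.574), or -0.19 without P6 control pool 1. The mean of all 3 probes was lower in Kir2.1 pools at P6. The probes map to the same gene and are not replicates of each other.

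Neither separation held under every scaling. A_51_P127738 stayed apart in 2 of the 5 scalings, the one used here and normexp. Its groups overlapped after scaling to all gene probes (highest Kir2.1 pool 3.02, lowest control pool 2.75), after quantile normalization (8.76 and 8.65) and in the deposited value table (2.84 and 2.58). Its change was -1.17 when scaled to all gene probes. That scaling also moved the median change of all tested probes at P6 from -0.11 to 0.11. A_55_P2126473 overlapped under the same scaling and in the deposited value table, with changes of -0.32 and -0.33, and stayed apart after quantile normalization and normexp. Over the 16 fits that each left out 1 pool, the change of A_51_P127738 lay between -1.64 and -0.998, with adjusted p between 0.164 and 0.347, and that of A_55_P2126473 between -0.62 and -0.47.

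Scn3a encodes the alpha subunit of the early brain. Its probe A_55_P2119772 read -0.84, 0.23, -0.75 and -0.17 in P6 control pools and -1.87, -1.53, -0.81 and -0.86 in P6 Kir2.1 pools. Of the 4 Kir2.1 pools, 3 lay below the lowest control pool, and the fourth fell among the controls. The change was -0.89 (SE 0.41, adjusted p = 0.290), from -0.38 ± 0.51 to -1.27 ± 0.52 (SD, n = 4). At P3 it read -1.49, -1.41, -0.28 and -1.07 in control and -0.92, -1.98, -2.55 and -2.003 in Kir2.1 pools, a change of -0.80 (SE 0.41, adjusted p = 0.816). Here too, 3 of the 4 Kir2.1 pools were lower than any control pool, and 1 lay among the controls.

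Averaged over both ages, Scn3a was the member with the lowest p: the change of A_55_P2119772 was -0.84 (SE 0.29, 95% interval -1.47 to -0.22, adjusted p = 0.218). In that comparison 0 of 8 probes were called, where 0.750% of all tested probes were, and this 1 had an unadjusted p under 0.05, where 13.4% of all did. That count was 5 after normexp and 1 or 2 in the other settings. All 8 changes lay below 0 with a median of -0.80, against -0.07 over all probes. With the scaling to all gene probes, and in the deposited values, Scn8a turned and 7 of the 8 lay below 0. The other tested Scn3a probe, A_66_P106808, was near background: it was well above it in 3 P3 control, 1 P3 Kir2.1, 2 P6 control and 2 P6 Kir2.1 pools. Its changes with Kir2.1 were -1.89 (SE 1.28) at P3 and -1.77 (SE 1.28) at P6. The third Scn3a probe was well above background on 2 of the 16 arrays and was not tested.

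Scn8a encodes the alpha subunit of nodes of Ranvier and of mature initial segments. Its 1 tested probe, A_55_P2057132, was well above background on all 16 arrays. It read -1.52, -0.48, -1.02 and -0.96 in P6 control pools and -1.09, -0.75, -0.68 and -1.08 in P6 Kir2.1 pools. All 4 Kir2.1 pools lay within the range of the controls. The change was 0.09 (95% interval -0.54 to 0.72, adjusted p = 0.911). At P3 the probe read -0.35, -0.13, -1.08 and -0.10 in control and -1.11, -0.53, -0.74 and -0.32 in Kir2.1 pools, a change of -0.26 (95% interval -0.89 to 0.38). Whether Scn8a and Scn2a differ in their response was not tested.

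Scn1a encodes an alpha subunit that rises after birth and is prominent in inhibitory neurons. Its tested probe, A_55_P2138761, was among the most scattered. It read -2.43, -2.39, -2.08 and -5.86 in P6 control pools and -5.71, -10.03, -3.00 and -3.40 in P6 Kir2.1 pools. Both groups held a wide spread, and they overlapped. The change of -2.35 had an SE of 1.66 and a 95% interval from -5.91 to 1.22 (adjusted p = 0.499). It was -0.85 without P6 Kir2.1 pool 2, -3.23 without P6 control pool 4 and -1.13 after normexp. At P3 the pools ran from -7.02 to -2.67 in control and from -9.69 to -3.67 in Kir2.1, and the change was -0.68 (SE 1.66). The other Scn1a probe was well above background on 1 array.

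Scn2b encodes a beta subunit that is covalently linked to the alpha subunit and aids its delivery to the membrane. Its probe A_51_P212741 read -2.32, -2.93, -2.22 and -2.25 in P6 control pools and -3.29, -2.58, -3.57 and -2.96 in P6 Kir2.1 pools. Of the 4 Kir2.1 pools, 3 lay below all controls. The change was -0.67 (SE 1.06, adjusted p = 0.796), where the SE is set by the far wider spread at P3. Scn4b, whose product shapes resurgent current, was not well above background in any pool, so it has only a bound and no difference.

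**Figure D2:**
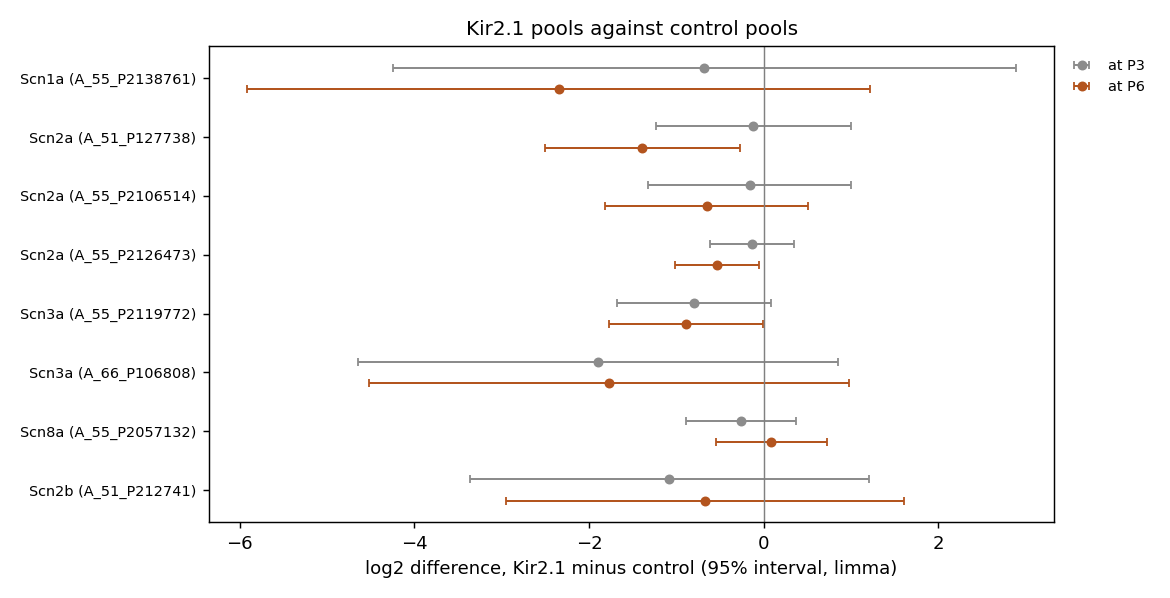
Log2 difference of Kir2.1 and control pools for the 8 tested probes at P3 (grey) and P6 (orange), with 95% intervals from limma. At P6 the intervals of 2 Scn2a probes and 1 Scn3a probe lie below 0 before adjustment for multiple tests; at P3 every interval includes 0.

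At P3, 0 of the 8 probes were called, where 0.0125% of all tested probes were, and 0 had an unadjusted p under 0.05, where 6.48% of all did. All 8 changes lay below 0, under each scaling tried, with a median of -0.47 against -0.02 over all probes; after normexp the median was -0.25. Both values leaned on single pools: without P3 Kir2.1 pool 1, 5 of the 8 lay below 0 with a median of -0.065, and without P3 control pool 2, 7 of the 8 did with a median of -0.27. Leaving out P3 control pool 3 or 4 or P3 Kir2.1 pool 4 left 7, 6 and 7 of the 8 below 0. The 5 genes all lay below 0, as did 55.6% of named genes. The smallest adjusted p was 0.816, that of Scn3a given above. Scn2a barely differed at this age: A_51_P127738 read -3.16, -2.07, -1.87 and -1.70 in control and -2.69, -1.69, -1.57 and -3.31 in Kir2.1 pools. Its change was -0.12 (95% interval -1.23 to 0.997), and that of A_55_P2126473 was -0.13 (95% interval -0.61 to 0.35). Separated groups were seen for 0 of the 8 probes at P3, where 6.76% of all probes separated in either direction, and for 2 of 8 at P6, where 8.75% did.

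The test of whether the Kir2.1 difference itself changes with age called 0 of 8 probes, where 0.0875% of all were called, and 0 had an unadjusted p under 0.05, where 10.4% of all did. The largest interaction among the brightly measured probes was that of Scn2a A_51_P127738, -1.27 (SE 0.73, adjusted p = 0.587). For Scn3a A_55_P2119772 it was -0.085 (SE 0.58), with a 95% interval from -1.33 to 1.16. A difference in Scn2a that belongs to P6 alone was not shown by this test.

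Other values moved with the P6 comparison. The summed signal of the 17 bulb interneuron markers lay between 4.54 and 10.73 times the array's 75th percentile in P6 control pools and between 1.30 and 3.60 in P6 Kir2.1 pools, with no overlap under any of the 5 scalings. In P3 pools it lay between 1.95 and 2.53 in control and between 1.77 and 2.91 in Kir2.1 cells. Of the 14 tested members of that list, 13 lay lower with Kir2.1 at P6, as did 53.7% of named genes. Called was 1, where 1.61% of all tested probes were: Penk, an interneuron neuropeptide gene (adjusted p = 0.0284). It read -0.17, -1.23, -7.16 and -3.80 in P6 control and -8.09, -9.85, -9.67 and -10.04 in P6 Kir2.1 pools. The size of its difference is not settled. Penk was well above background in 3 of 4 P6 control pools and in 0 of 4 P6 Kir2.1 pools. Its call was lost without any 1 of 6 of the pools, with an adjusted p of up to 0.0651. The part of interneuron RNA in the Scn2a and Scn3a differences was not tested.

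The mitral and tufted markers moved the other way. Their sum over 9 genes was 8.89 to 15.15 in P6 control and 16.06 to 23.98 in P6 Kir2.1 pools, again without overlap under the 5 scalings. Of the 8 tested, 7 lay higher with Kir2.1 at P6 and 1 was called, where 1.61% of all tested probes were. That was Reln, which encodes the secreted protein reelin (adjusted p = 0.0223). Reln read -6.45, -7.60, -9.41 and -9.48 in P6 control pools, well above background in 1 of the 4, and -5.43, -3.16, -5.93 and -2.88 in P6 Kir2.1 pools, so the size of its difference is not settled. The Reln call was lost in 3 of the 16 fits without 1 pool, with an adjusted p of up to 0.0599. Astrocyte and radial glia markers summed to 11.70 to 14.24 in P6 control and 3.97 to 15.41 in P6 Kir2.1 pools, and microglia markers to 0.44 to 2.05 and 0.20 to 1.02. Sums over the oligodendrocyte lineage (1.54 to 5.85 and 1.08 to 5.94), olfactory sensory neurons (0.49 to 2.11 and 0.42 to 1.05) and vascular and blood cells (0.77 to 1.49 and 0.58 to 3.82) overlapped between P6 control and P6 Kir2.1 pools. By gene, 8 of 8 tested astrocyte and radial glia markers (median change -1.32) and 5 of 5 microglia markers (-2.62) lay lower with Kir2.1 at P6. So did 53.7% of named genes. In the other lists, in the order above, 6 of 9, 3 of 5 and 2 of 5 lay lower. In these lists 0 were called, where 1.61% of all tested probes were. The part of glial RNA in the sodium channel differences was not tested.

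**Figure D3:**
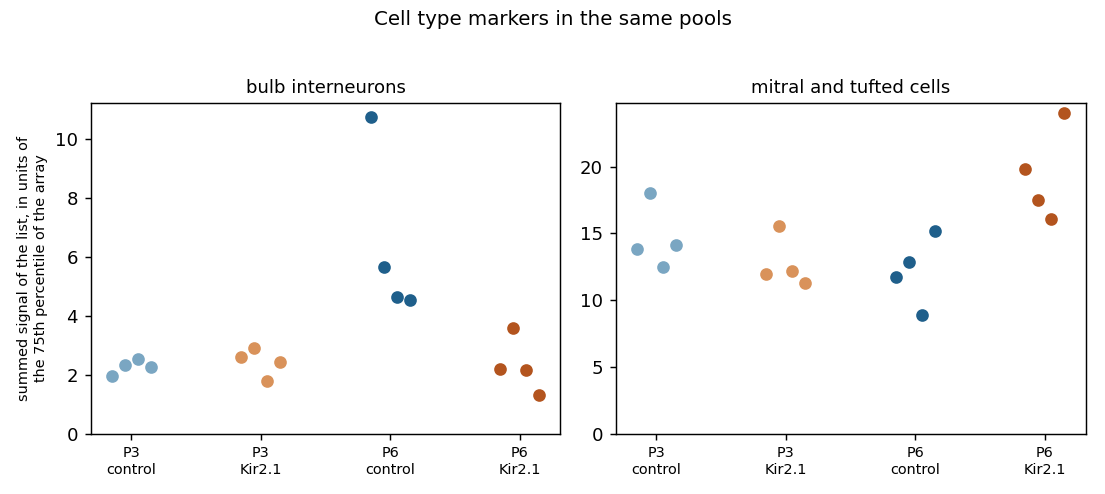
Summed linear signal, in units of the array's 75th percentile, of 17 interneuron markers (left) and 9 mitral and tufted cell markers (right) in each pool. In the P6 control pools the interneuron sum is 4.54 or more, and in the other 12 pools it is 3.60 or less.

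The pool with the highest interneuron sum, P6 control pool 1 at 10.73, read the lowest of the P6 control pools for Scn2a A_51_P127738 and A_55_P2126473 and the highest, -4.62, for the dim A_55_P2106514. Without that pool the change of Scn2a A_51_P127738 at P6 was -1.585 and that of Scn3a A_55_P2119772 was -1.04. The highest reading of A_51_P127738 came from P6 control pool 3 (-0.0089), whose interneuron sum was 4.62. Without it the change of A_51_P127738 was -0.998 (adjusted p = 0.328). These are readings of single pools within 1 group, which cannot show what part interneuron RNA has in a difference between groups. That part was not tested.

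With age, no member passed the threshold either. In control cells 0 of 8 probes were called, where 2.30% of all tested probes were, and 1 had an unadjusted p under 0.05, where 17.6% of all did. In Kir2.1 cells 0 of 8 were called, where 0.833% of all were, and again 1 had an unadjusted p under 0.05, where 14.5% of all did. These comparisons share their P3 and P6 slides with every other difference between the ages.

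Scn2b had the largest difference with age. Its P3 pools read -4.02, -2.57, -6.07 and -6.09 in control and -9.33, -3.24, -5.85 and -4.65 in Kir2.1 cells. Of these 8 pools, 6 lay below all 8 P6 pools, which ran from -3.57 to -2.22. The P6 level was 2.26 higher in control cells (SE 1.06, adjusted p = 0.289) and 2.67 higher in Kir2.1 cells (SE 1.06, 95% interval 0.38 to 4.95, adjusted p = 0.266). The difference in Kir2.1 cells was 1.48 without P3 Kir2.1 pool 1, which at -9.33 was not well above background. After normexp the differences were 1.30 in control and 1.03 in Kir2.1 cells.

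Scn2a A_55_P2126473 was the member that separated the ages in control cells. Its P3 control pools read -0.70, -0.69, -1.25 and -1.05, and all 4 P6 control pools given above lay above them. The difference was 0.58 (SE 0.22, adjusted p = 0.192); separation upward was seen in 5.71% of all tested probes. Of the 14 tested interneuron markers, 12 also lay higher at P6 in control cells. Called were 3 (Gad1, Gad2 and Meis2), where 2.30% of all tested probes were. Of 8 astrocyte and radial glia markers all lay higher and 1 was called (Fabp7). The part of these markers' cells in the Scn2a difference was not tested. In Kir2.1 cells the P3 pools read -1.39, -0.74, -1.07 and -1.005, they overlapped with P6, and the difference was 0.18 (SE 0.22). For A_51_P127738 the differences were 1.02 (SE 0.52, adjusted p = 0.331) in control and -0.25 (SE 0.52, adjusted p = 0.869) in Kir2.1 cells.

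Scn8a lay lower at P6 in control cells, by a change of -0.58 (SE 0.29, adjusted p = 0.334), with 4 of the 8 P3 pools above all P6 pools. In Kir2.1 cells its change was -0.23 (SE 0.29). Scn3a A_55_P2119772 lay 0.68 higher at P6 in control cells (SE 0.41, adjusted p = 0.422) and 0.59 higher in Kir2.1 cells (SE 0.41, adjusted p = 0.550). Scn1a differed by 1.78 in control and 0.11 in Kir2.1 cells, each with an SE of 1.66.

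**Figure D4:**
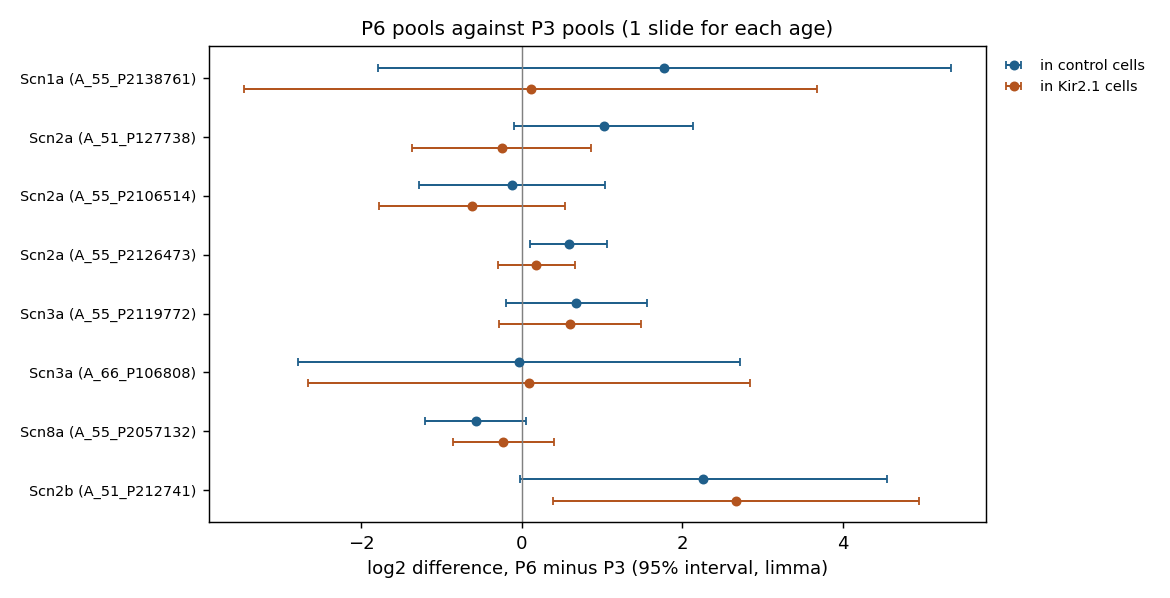
Log2 difference of P6 and P3 pools for the 8 tested probes in control (blue) and Kir2.1 cells (orange), with 95% intervals from limma; each age lies on a slide of its own. The Scn2b differences of 2.26 and 2.67 are the farthest from 0, and the intervals of Scn2a A_55_P2126473 in control cells and of Scn2b in Kir2.1 cells exclude 0 before adjustment for multiple tests.

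Ordered by group mean, Scn1a, Scn2b, the better measured Scn3a probe and 2 of the 3 Scn2a probes were highest in P6 control cells. Scn8a was highest in P3 control cells (-0.42 ± 0.46) and lowest in P6 control cells (-0.99 ± 0.42). In these orders neighbouring groups overlapped, except that P6 control pools of Scn2a A_55_P2126473 lay above those of the next group, P6 Kir2.1. The lowest group was P6 Kir2.1 for the other Scn2a probes, at -2.56 and -6.65, and P3 Kir2.1 for Scn1a, Scn2b and both tested Scn3a probes.

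The members did not vary as 1 block over the 16 arrays. As a description over pools that share slide and group, Pearson correlations between probes of different genes ran from -0.42 to 0.81 with a median of 0.12 (24 pairs). The highest was that of Scn2b and Scn2a A_55_P2126473 (rho 0.88). Probes of 1 gene correlated between -0.28 and 0.54 (4 pairs), so they did not rank the pools alike.

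The named genes most like each member over the 16 arrays were found by the highest Pearson correlation among 12034 genes. For Scn2a they were Klhl8 (0.91), Synpr (0.90), which encodes the synaptic vesicle protein synaptoporin, and Greb1 (0.90). For Scn8a they were Ung (0.93), a DNA repair enzyme, Synpo2l (0.92) and Ralgps1 (0.92). For Scn3a they were Kif1a (0.82), the axonal motor of synaptic vesicle precursors, Crybg1 (0.78) and Wsb2 (0.78). For Scn2b they were Ypel2 (0.90), Lmo2 (0.85) and P4htm (0.84), and for Scn1a they were Dvl2 (0.79), Ppig (0.75) and Ripply2 (0.75). Among so many genes, high values are found by search, and they are given only as a description.

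Related genes were taken from lists. Of 21 genes that bind or anchor sodium channels at the axon initial segment, 20 were tested. In none of the comparisons as fitted here did limma call any of them. Over all tested probes the share called ran from 0.0125% to 2.30%, depending on the comparison. With Kir2.1 at P6, 12 of the 20 lay below 0, as did 53.7% of named genes, and the median change was -0.16. Of the 20, 3 had an unadjusted p under 0.05, where 17.1% of all tested probes did. Nearest to the threshold was Cntn1, which encodes contactin, an adhesion protein that binds the channel complex. It read 1.14, 0.76, 1.097 and 1.61 in P6 control and 0.10, 0.47, -1.003 and -0.82 in P6 Kir2.1 pools, a change of -1.46 (SE 0.34, adjusted p = 0.0522). All 4 Kir2.1 pools lay below all controls, whereas at P3 the change was -0.014 (SE 0.34). Cntn1 passed the threshold in 5 of 10 other settings, quantile normalization and normexp among them, and without P6 Kir2.1 pool 2 (adjusted p = 0.0322); over the other settings its adjusted p ran from 0.024 to 0.291.

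The other two with an unadjusted p under 0.05 at P6 were Trim46, an organiser of initial segment microtubules (-0.83, SE 0.31, adjusted p = 0.190), and Nfasc, the initial segment adhesion protein neurofascin (-1.26, SE 0.56, adjusted p = 0.265). Trim46 separated the groups and Nfasc did not. Separation downward, as for Trim46 and Cntn1, was found in 5.41% of all tested probes at P6. The scaffold Ank3 had a change of 0.35 (adjusted p = 0.833) at P6 and -0.02 at P3. Its partner Sptbn4, the initial segment spectrin, had changes of -0.04 and 0.08.

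At P3, 12 of the 20 lay below 0 with a median of -0.01, as did 55.6% of named genes. Of the 20, 2 had an unadjusted p under 0.05, where 6.48% of all tested probes did. L1cam, an adhesion gene, was 1 of them. It read -5.08, -6.11, -6.09 and -8.06 in control and -1.81, -3.41, -3.08 and -4.64 in Kir2.1 pools (change 3.098, SE 0.84, adjusted p = 0.421). It was higher in all Kir2.1 pools than in any control pool at P3 and overlapped at P6. Groups separated in either direction for 6.76% of all tested probes at P3. Fgf14, an intracellular modulator of the channels, had a change of -2.36 at P3 (adjusted p = 0.814). The size of that change is not settled. The P3 Kir2.1 pools read -3.46, -9.64, -5.27 and -9.40, well above background in 2 of the 4. At P6 the Fgf14 difference went the other way, with means of -5.99 ± 1.53 in control and -3.86 ± 0.66 in Kir2.1 pools (SD, n = 4).

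Over both ages, 6 of the 20 had an unadjusted p under 0.05, where 13.4% of all tested probes did. The lowest were Cntn1 (-0.74, adjusted p = 0.192), L1cam (1.67, adjusted p = 0.239) and Trim46 (-0.53, adjusted p = 0.314).

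**Figure D5:**
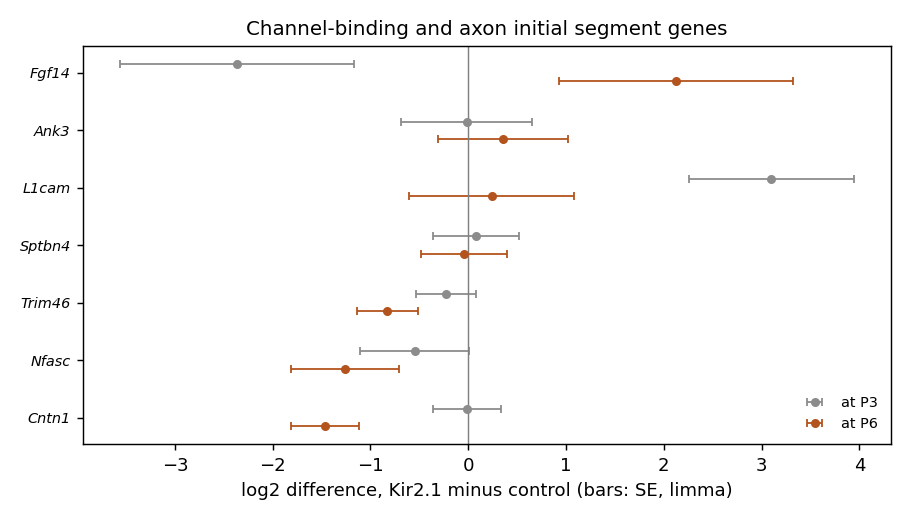
Log2 difference of Kir2.1 and control pools for the 7 channel-binding and axon initial segment genes named in the text, at P3 (grey) and P6 (orange), ordered by the P6 value; bars are the SE from limma. Cntn1 is at -0.014 at P3 and -1.46 at P6, and L1cam at 3.098 and 0.24.

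Of 8 other sodium channel genes, 4 were tested and 0 called in any comparison. Scn4a, the muscle alpha subunit, differed by -0.20 at P3 and -0.13 at P6. Nalcn, the sodium leak channel, was well above background in 5 of 16 pools, and differed by -2.77 at P6 (SE 1.72, adjusted p = 0.435). Of 5 regulators of sodium channel mRNA, 4 were tested and 0 called. Pum2, an RNA-binding repressor, differed by -0.83 at P6 (SE 0.60, adjusted p = 0.512), Celf4 by 0.09 and Rcor1 by 0.87 (SE 1.41).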

How the data were processed

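Mitral cells were measured as 16 pools of single-cell cDNA on 1-colour Agilent arrays. Per the file headers and the submitters' processing notes, slides were read with Agilent Feature Extraction 10.7.3.1, and the authors deposited the processed spot intensity, background-subtracted and linear. The deposited value table of the series holds a signal that equals the processed spot signal divided by 1 constant per array (its 75th percentile over gene spots, linear and not centred on genes), and it was used as an alternative.

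Control and outlier spots were left out, spots of a probe were averaged, and probes were named by RefSeq accession (26582 of 28116 probes with one). From each array's log2 intensities was subtracted the 75th percentile of 12103 probes, those well above background in every pool. Testing was limited to probes well above background in 4 pools or more. A single limma fit held the 4 groups (limma 3.58.1, lmFit and eBayes, in R 4.3.3), and each adjusted p is from this fit with Benjamini-Hochberg adjustment over 24010 probes. The script was tested on simulated data.

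The members, the related gene lists and the marker lists were chosen with earlier results of these data known. All members were described with all their probes. From the related lists, genes past the threshold and up to 3 with the lowest p in each comparison with Kir2.1 were named; some genes of these lists are not reported here. The alternatives were other scalings, background correction with normexp (on median spot signals, since mean signals were not used here), other filters, 1 probe for each gene, another variance model, a replicate block, fits of fewer groups, and each pool left out. The number of arrays limits the precision.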

Additional observations from a re-analysis of the deposited data

Results flagged for a closer look

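Each of the 8 tested sodium channel probes was examined in each of the 4 groups for a pool that stands apart, judged by the gap to its nearest neighbour over the group's whole range against Dixon's 95% critical value. Chance marks about 1 group in 20 this way, and 3 of 32 were marked. Scn1a lay at -5.86 in P6 control pool 4, where the other 3 pools lay between -2.43 and -2.08. The low Scn3a probe A_66_P106808 lay at -5.90 in P3 Kir2.1 pool 3, where the others were near background, between -9.64 and -9.40. Scn2b lay at -2.93 in P6 control pool 2, below the other 3 between -2.32 and -2.22.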

How the results depend on the processing

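Under every alternative run, fits without single pools included, 0 of the tested sodium channel probes passed the threshold in any comparison. With 1 pool left out, between 1 and 3 of them (5 after normexp, with all pools) had an unadjusted p under 0.05 for Kir2.1 over both ages. For age in control cells the count was between 0 and 2 (0 without P3 control pool 4). With all pools it was 3 after quantile normalization and 3 after normexp. For age in Kir2.1 cells, with 1 pool left out, it was 0 or 1 (0 without P6 Kir2.1 pool 2). Directions turned for small changes. Scaled to all gene probes, the Scn8a change over both ages was 0.0464 and the interaction of Scn3a A_55_P2119772 was 0.0849; in the deposited value table they were 0.0398 and 0.0749. For Scn3a A_66_P106808 the age difference in control cells was 0.0890 after quantile normalization and 0.0267 after normexp, and normexp gave -0.1872 for its age difference in Kir2.1 cells, -0.2139 for its interaction and -0.2753 for the interaction of Scn2b. The cause was not tested.

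Leaving out each pool in turn, the Kir2.1 change at P3 ran from -0.4363 to 0.2141 for Scn2a A_51_P127738, from -0.6693 to 0.2259 for Scn2a A_55_P2106514, from -1.9216 to 0.1095 for Scn2b and from -1.3620 to 0.6700 for Scn1a. For Scn8a it ran from -0.0842 to 0.2617 at P6 and from -0.1937 to 0.0027 over both ages. The age difference ran from -0.6372 to 0.2581 for Scn2a A_55_P2106514 in control cells, from -0.8402 to 0.8687 (control) and from -0.5096 to 0.9944 (Kir2.1) for Scn3a A_66_P106808, and from -1.2389 to 1.6057 for Scn1a in Kir2.1 cells. The interaction ran from -0.7789 to 1.2523 for Scn2b, from -0.8780 to 0.0173 for Scn2a A_55_P2106514, from -0.3474 to 0.2282 for Scn3a A_55_P2119772 and from -0.7828 to 1.0278 for Scn3a A_66_P106808.

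The replicate numbers follow the slide column. Deviations of same-numbered pools correlated between -0.028 and 0.025, so no deviation shared by same-numbered pools was seen. Whether these pools were handled together cannot be told from such values. With a replicate block, 0 sodium channel probes were called in each comparison. Over all tested probes the block gave 0 calls in place of 3 at P3, 189 in place of 386 at P6, 86 in place of 180 over both ages, 345 in place of 552 for age in control cells, 59 in place of 200 for age in Kir2.1 cells and 9 in place of 21 for the interaction. Over all alternatives the calls at P6 ran from 22 (fit of the compared groups alone) to 765 (normexp), at P3 from 0 to 31 and over both ages from 74 to 409. They ran from 185 to 975 and from 29 to 279 for age in control and Kir2.1 cells, and from 9 to 100 for the interaction. Of the calls at P6, 51.0% were higher with Kir2.1, against 72.9% when scaled to all gene probes, 71.9% in the deposited table, 60.9% after quantile normalization and 36.1% after normexp. Signal near background limits Scn1a, Scn2b and Scn3a A_66_P106808, whose intervals span several log2 units.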
